A study of Mus musculus with 9 samples.

Results

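The immediate early genes Fos, Fosb, Jun, Junb, Jund, Egr1, Egr2, Atf3, Ier2 and Ier3 were followed in irradiated mouse submandibular glands. The 10 genes were taken by name from a table of 54532 Ensembl gene identifiers, and all 10 passed the filter on low counts, which left 15224 genes for testing. The samples were submandibular salivary glands of wild-type (WT) mice, all given 10 Gy of radiation. They fall into 3 groups of 3, taken 30, 60 or 90 days after irradiation, and each library came from total RNA of 4 sections of 50 µm. The study asked how gene expression moves as irradiated glands pass into lasting loss of function. Unirradiated glands are not analysed here, so each comparison is between later and earlier irradiated glands, and time after irradiation cannot be told apart from the age of the animals. Age, sex, hour of collection and the time from dissection to freezing are not given in the sources used here, and neither is it stated that the 3 samples of a group are separate animals. The p-values therefore measure the spread between these samples, which may be technical.

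Immediate early genes are transcribed within minutes of a stimulus, without new protein synthesis, when kinase cascades act on transcription factors already bound at their promoters. The Fos and Jun proteins and Atf3 are basic leucine zipper proteins that pair to form the AP-1 complex, and the Egr proteins bind GC-rich sites through zinc fingers. Growth factors, secretory agonists, injury and radiation all induce these genes, and so does the handling of tissue between death and freezing.

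Total counts ran from 16541396 to 26065856 per library, lowest at 30 days, and 3 counts corresponded to 0.115 to 0.181 CPM (counts scaled to a common library total). The genes with the highest counts took most of each library: the top 10 held 51.3% to 66.5% of all counts. Expression is given below as CPM scaled by TMM (trimmed mean of M-values), as mean ± SD over 3 libraries. The duct, muscle and adipocyte markers matched the labelled gland, with summed levels of the 8 duct genes at 18427 to 31834 CPM. The 4 skeletal muscle genes summed to 1.36 to 2.76 CPM, with Myh4 at 0 counts in all 9 libraries, and the 4 adipocyte genes to at most 2.73 CPM. The sublingual mucous genes Muc19 and Smgc summed to 147 to 1139 CPM, and the part of sublingual tissue in the libraries was not tested. In whole-tissue RNA, fewer cells of a type and less RNA per cell cannot be told apart.

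The start-site sequences of 4 of the genes are shown because the factors that drive early induction bind near the start: Fos as the prototype, Egr2 for its binding site of serum response factor (Srf), and Jun and Ier3 because they came nearest to the significance threshold. Windows of 300 bases from RefSeq (GRCm38.p6), 250 before to 50 after the start, were searched for 8 of the 10 genes. Egr1 and Ier2 were not searched, so nothing is said here of motifs at their starts. The sequences are written 5′ to 3′ on the gene's strand, and capitals mark matches to the searched motifs.
Fos, chr12:85473640-85473939, plus strand: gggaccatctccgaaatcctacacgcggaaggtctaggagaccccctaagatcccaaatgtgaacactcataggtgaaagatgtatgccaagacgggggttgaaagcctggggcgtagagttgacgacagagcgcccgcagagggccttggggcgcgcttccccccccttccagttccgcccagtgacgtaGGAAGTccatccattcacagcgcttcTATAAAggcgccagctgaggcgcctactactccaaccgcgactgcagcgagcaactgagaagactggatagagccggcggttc
Egr2, chr10:67537619-67537918, plus strand, 1 of 5 listed starts: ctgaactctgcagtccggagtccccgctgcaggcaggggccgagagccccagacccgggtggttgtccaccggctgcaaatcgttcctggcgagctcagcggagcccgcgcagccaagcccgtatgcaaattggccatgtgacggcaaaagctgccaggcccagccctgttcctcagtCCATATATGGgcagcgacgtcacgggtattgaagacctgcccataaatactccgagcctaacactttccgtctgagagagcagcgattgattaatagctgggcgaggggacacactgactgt
Jun, chr4:95052173-95052472, minus strand: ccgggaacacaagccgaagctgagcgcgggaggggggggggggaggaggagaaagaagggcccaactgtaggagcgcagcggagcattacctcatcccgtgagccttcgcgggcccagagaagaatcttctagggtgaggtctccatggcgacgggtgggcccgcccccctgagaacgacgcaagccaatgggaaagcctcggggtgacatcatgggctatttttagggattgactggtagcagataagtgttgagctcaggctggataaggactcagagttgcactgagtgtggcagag
Ier3, chr17:35821463-35821762, plus strand: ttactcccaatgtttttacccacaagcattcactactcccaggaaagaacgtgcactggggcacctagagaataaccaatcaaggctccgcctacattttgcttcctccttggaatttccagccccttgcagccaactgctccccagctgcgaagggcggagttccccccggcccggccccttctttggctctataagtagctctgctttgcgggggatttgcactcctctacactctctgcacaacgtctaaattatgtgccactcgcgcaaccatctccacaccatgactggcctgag
The search covered TGANTCA (AP-1 site), TGACGTCA (cAMP response element), GCGNGGGCG (Egr site), GGAAGT (Ets core) and the CArG box bound by Srf on both strands, and TATAAA on the gene's strand. Fos held TATAAA 33 bases and GGAAGT 59 bases before its start, and Junb also held both motifs, TATAAA from the listed start and GGAAGT on the opposite strand 23 bases before the start. In the Egr2 window shown, the CArG box began 72 bases before the start. Of the 8 genes searched, Egr2 alone had one, against 1.63% of all 32851 windows. The windows reach only 250 bases before the start, so a site further upstream in Fos or another gene would be missed. Fosb held the Egr site, found in 5.55% of windows. Jun, Jund, Atf3 and Ier3 had 0 matches, which says only that these letters are not in these windows. The windows of Jund (chr8:70697489-70697788) and Atf3 (chr1:191183284-191183583), and the Egr2 window shown, lie at RefSeq starts other than the GENCODE starts of the gene positions given below. The RefSeq starts of Fosb, Junb and Ier3 also differ from those, by fewer bases. TATAAA was in 8.32% of all windows, GGAAGT in 23.8%, TGANTCA in 7.81% and TGACGTCA in 1.79%.

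Levels spanned a wide range. Per kilobase of exon, averaged over the 9 libraries, Jund stood highest at 36.7 ± 7.73 CPM per kb (SD, n = 9), followed by Jun at 18.2 ± 2.88, Ier2 at 12.8 ± 1.86, Junb at 10.3 ± 2.27 and Ier3 at 7.43 ± 1.87. Egr1 followed at 3.245 ± 2.09 CPM per kb, Atf3 at 2.20 ± 0.519, Fos at 1.30 ± 0.502, Egr2 at 0.296 ± 0.0995 and Fosb at 0.0656 ± 0.0443. Jund was above Jun in 9 of 9 libraries, while Egr1 exceeded Atf3 in only 6 of 9. The order of the group means was the same at 30 and 90 days, and at 60 days Atf3 stood above Egr1.

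None of the 10 genes passed in any contrast between time points in edgeR's quasi-likelihood test with Benjamini-Hochberg adjustment over all genes, at an adjusted p of 0.05. Between 60 and 30 days 0 of 10 were called, where 1.56% of all genes were, and 4 had an unadjusted p under 0.05 (Fos, Fosb, Egr1 and Ier3; 12.4% of all genes). Between 90 and 60 days the count was 0 against 0.256% of all genes, with 2 (Jun and Ier3) at an unadjusted p under 0.05 (10.8% of all genes). Between 90 and 30 days it was 0 against 3.57%, with 2 (Fos and Jun) at an unadjusted p under 0.05 (16.8%). For 60 days against the mean of 30 and 90 days it was 0 against 0.256%, again with 2 (Egr1 and Ier3; 9.45%). The test of any difference among the 3 time points called 0 of 10, against 3.29% of all genes, with 3 at an unadjusted p under 0.05 (16.7%). DESeq2 called 1 member, Ier3, between 60 and 30 days, where it called 376 of all 15224 genes. It called 0 members between 90 and 60 days (150 of all genes), between 90 and 30 days (867) and for 60 days against the mean (148). Its counts of unadjusted p under 0.05 among the members were the same as with edgeR. DESeq2 gave no adjusted p for Fosb in any contrast or for Egr2 between 90 and 60 days. It also gave none for Egr2 and Fos at 60 days against the mean, so these could not be called.

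The members did not share a direction. From 30 to 60 days their median log2 fold change was -0.19, with all genes at -0.002, and single members ran from -1.57 to 0.70. The 90 against 60 day values had a median of 0.11 (all genes 0.0008), and the 90 against 30 day values a median of -0.15 (all genes 0.01). These contrasts share libraries, so their values are given side by side only. Groups that did not overlap were seen in 2 of 10 genes from 30 to 60 days (Ier3 higher, Fosb lower), where 16.9% of all genes did not overlap, 8.65% higher and 8.22% lower. From 60 to 90 days Jun and Egr1 were higher without overlap, 2 of 10 where 15.9% of all genes did not overlap, 8.3% higher and 7.64% lower. From 30 to 90 days this held for Jun and Ier3, again 2 of 10, where 23.2% of all genes did not overlap, 11.4% higher and 11.8% lower. In either direction these counts are near the share over all genes and are not a result about the 10 genes.

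**Figure D1:**
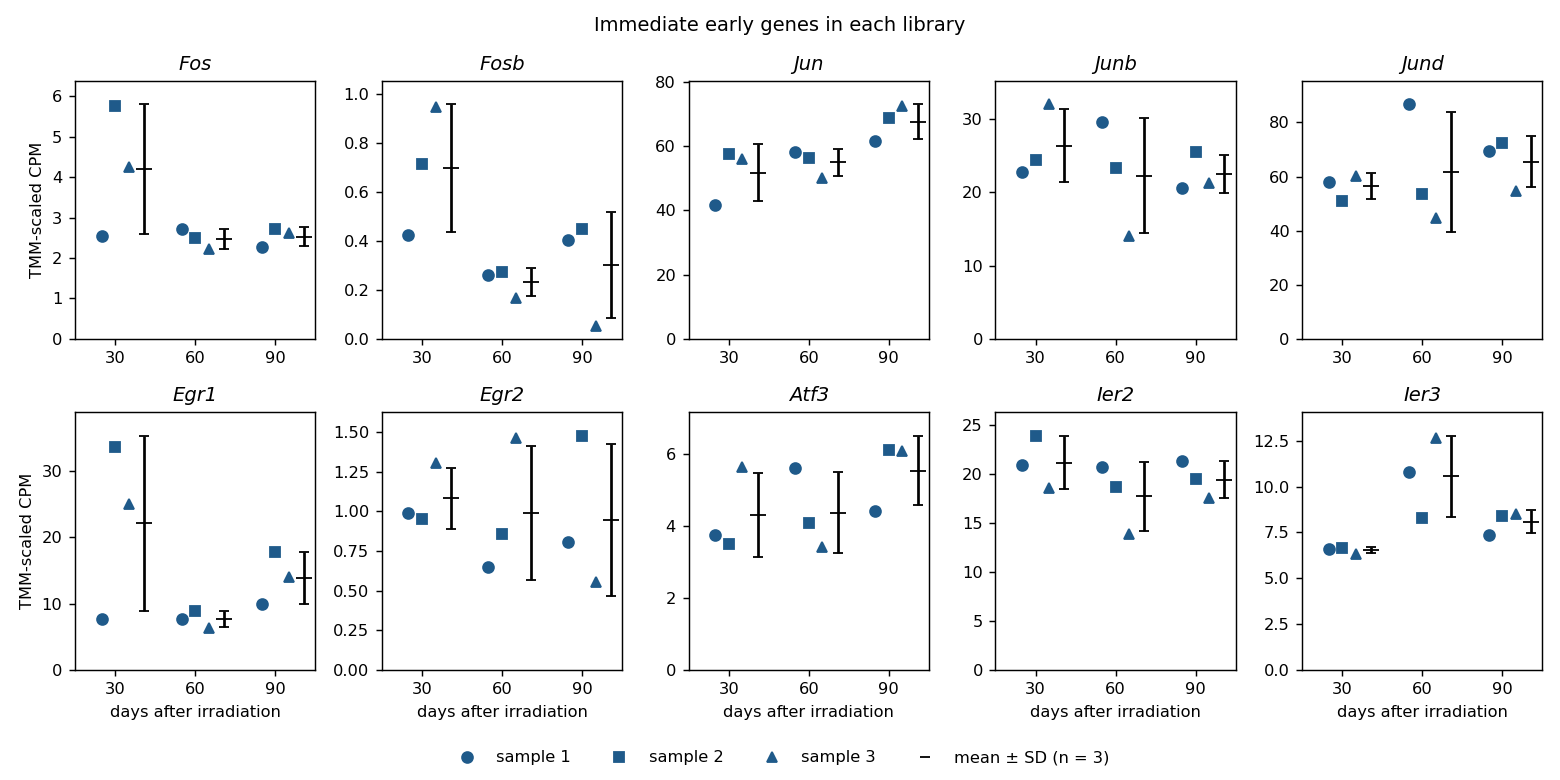
TMM-scaled CPM of each gene (vertical axes, from 0) in every library by days after irradiation; circles, squares and triangles are samples 1, 2 and 3, and black bars are mean ± SD (n = 3). Egr1 and Fos are highest in 30-day samples 2 and 3, and the 60-day values of Ier3, from 8.28 to 12.7 CPM, lie above its 30-day values.

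Fos (ENSMUSG00000021250, chromosome 12, 85473890 to 85477273, plus strand in GRCm38) encodes the founding member of the Fos family. It measured 2.55, 5.77 and 4.26 CPM in 30-day samples 1, 2 and 3, then 2.72, 2.49 and 2.21 CPM at 60 days and 2.26, 2.72 and 2.61 CPM at 90 days. Samples 2 and 3 at 30 days were thus the highest of the 9, and sample 1 lay among the later libraries. Its log2 fold change was -0.77 ± 0.28 (SE) from 30 to 60 days (edgeR adjusted p = 0.244; 95% interval -1.36 to -0.18, not adjusted for the number of genes tested) and -0.74 ± 0.28 from 30 to 90 days (adjusted p = 0.175). From 60 to 90 days it was 0.03 ± 0.28, and the groups overlapped. Without 30-day sample 2 the first 2 values became -0.469 (adjusted p = 0.641) and -0.441 (adjusted p = 0.560).

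Fosb (ENSMUSG00000003545, chromosome 7, 19302696 to 19310051, minus strand), a paralog of Fos, was close to the detection limit. Its raw counts were 6, 12 and 16 at 30 days, 6, 6 and 4 at 60 days and 12, 13 and 1 at 90 days. Scaled, these are 0.425, 0.713 and 0.947 CPM, then 0.259, 0.271 and 0.167, then 0.4045, 0.447 and 0.0502. On this scale the 60-day libraries lay below all 30-day ones, but the fitted log2 difference of -1.57 ± 0.68 (SE) had a 95% interval from -3.01 to -0.14 and an adjusted p of 0.345 (edgeR). At 90 days sample 3 stood apart with 1 count, under the floor of 3 counts (0.147 CPM). The log2 difference at 90 against 30 days was -1.14 ± 0.65 (SE; edgeR adjusted p = 0.400), with a 95% interval from -2.50 to 0.22, and was not called. Without 90-day sample 3 it was -0.714.

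Egr1 (ENSMUSG00000038418), a zinc finger factor induced through Srf and its Ets partners, varied widely between samples of a group. It measured 7.66, 33.6 and 25.1 CPM in 30-day samples 1, 2 and 3. At 60 days it measured 7.68, 8.82 and 6.38 CPM, and at 90 days 9.91, 17.7 and 14.0 CPM. Sample 1 at 30 days fell inside the 60-day range, so that the highest 30-day value was 4.395 times the lowest, while the 90-day libraries all stood above the 60-day ones. With all 9 libraries the log2 fold change was -1.55 ± 0.52 (SE) from 30 to 60 days (edgeR adjusted p = 0.297) and 0.86 ± 0.52 from 60 to 90 days (adjusted p = 0.618).

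The Egr1 values depended on single 30-day libraries. Without 30-day sample 1, Egr1 lay below its 30-day level at 60 days by -1.94 ± 0.22 (SE) on the log2 scale (edgeR adjusted p = 0.000277), at 90 days by -1.08 ± 0.21 (adjusted p = 0.0178), and at 60 days below the mean of the other time points by -1.40 ± 0.19 (adjusted p = 0.00319). Without 30-day sample 2 the differences were smaller, -1.11 at 60 days (adjusted p = 0.471) and -0.253 at 90 days (adjusted p = 0.870) against 30 days. The library of 30-day sample 1 had the lowest TMM factor of the 9 (0.824) and summed levels of 58.1 CPM for the 7 leukocyte genes and 263 CPM for the 4 fibroblast genes, against 78.4 and 96.0, and 313 and 415 CPM, in 30-day samples 2 and 3. The 6 acinar genes summed to 521632 CPM there, against 381233 and 387109, and the sublingual mucous genes Muc19 and Smgc to 147 CPM, against 679.6 and 421.5. The part of these differences in the Egr1 values was not tested.

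Egr2 (ENSMUSG00000037868, chromosome 10, 67535475 to 67542188, plus strand), a relative of Egr1 known for its role in Schwann cells, was near 1 CPM throughout. Its values were 0.992, 0.951 and 1.30 CPM at 30 days, 0.648, 0.859 and 1.46 at 60 days and 0.809, 1.48 and 0.552 at 90 days. All 3 groups overlapped, and the 95% interval of the log2 difference at 60 against 30 days ran from -1.12 to 0.86. Changes of that size in either direction thus remain possible.

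**Figure D2:**
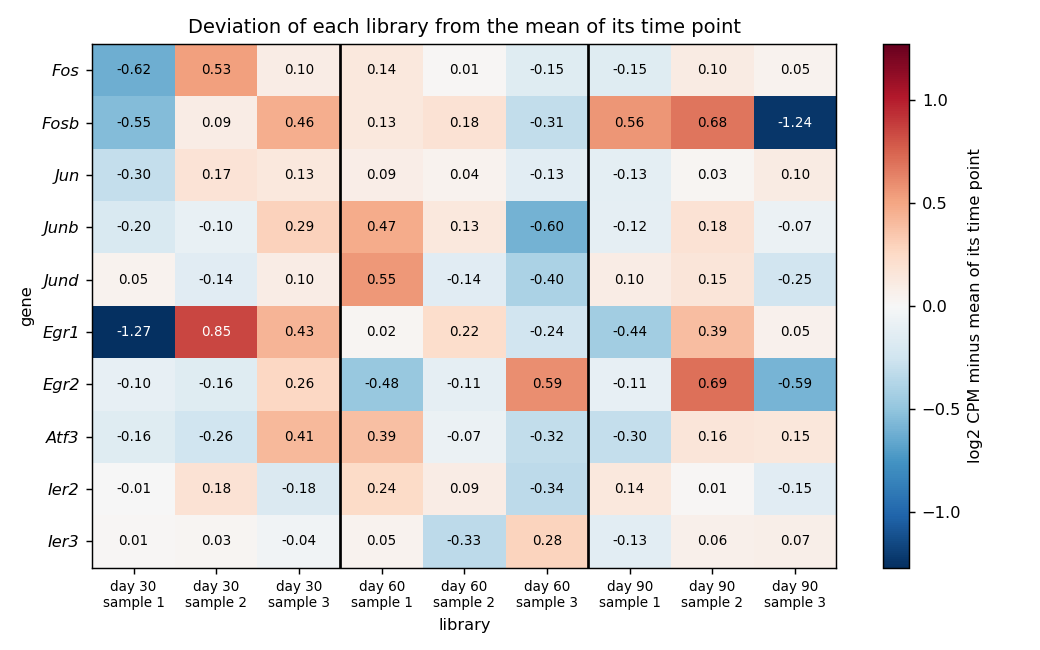
Colours and printed values give log2 CPM (prior count 2) of each gene (rows) in each library (columns) minus the mean of its time point. The lowest value is Egr1 in 30-day sample 1 (-1.27), and 60-day sample 3 is lowest of its group for 8 of the 10 genes.

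Jun (ENSMUSG00000052684, chromosome 4, 95049034 to 95052222, minus strand), the partner of Fos in AP-1, had its highest values at 90 days. Its values were 41.5, 57.6 and 56.0 CPM at 30 days, 58.3, 56.4 and 50.15 at 60 days and 61.8, 68.7 and 72.4 at 90 days. Every 90-day library was above every earlier one. Set against 30 days, its 90-day log2 fold change was 0.385 ± 0.12 (SE; edgeR adjusted p = 0.0860), with adjusted p-values from 0.0208 to 0.419 over 18 alternatives. Jun passed with library-size scaling (0.59, adjusted p = 0.0458), a scaling that moved the median of all genes to 0.24 in this contrast, and without a filter on low counts (0.40, adjusted p = 0.0208). Without 30-day sample 1 it was 0.249 (adjusted p = 0.419).

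Junb (ENSMUSG00000052837, chromosome 8, 84974484 to 84978718, minus strand), which can restrain Jun, had means of 26.4 ± 4.94, 22.3 ± 7.85 and 22.5 ± 2.60 CPM (SD, n = 3 each) at 30, 60 and 90 days. The lowest library was 60-day sample 3 with 14.0 CPM, and the highest 30-day sample 3 with 32.0 CPM. Junb overlaps Prdx2 on the other strand, a gene at 78.1 to 107.9 CPM here, and the use of strand in counting is not given in the sources used here, so reads of the pair may be mixed. Jund (ENSMUSG00000071076, chromosome 8, 70698949 to 70700616, plus strand), the constitutive relative, measured 56.4 ± 4.92, 61.7 ± 22.1 and 65.5 ± 9.43 CPM (SD, n = 3 each). Its 60-day libraries spread from 44.7 to 86.7 CPM and enclosed all values at the other times. The adjusted p-values of Junb and Jund were 0.700 or more in each contrast (edgeR). An antisense gene also overlaps each of Jun and Jund, with Junos at only 1.56 to 2.75 CPM beside Jun.

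Atf3 (ENSMUSG00000026628, chromosome 1, 191170296 to 191218039, minus strand), a stress-induced factor that joins AP-1 partners, measured 3.76, 3.51 and 5.62 CPM at 30 days, 5.61, 4.07 and 3.42 at 60 days and 4.42, 6.12 and 6.07 at 90 days. The groups overlapped in each pair, and 90 against 30 days gave a log2 fold change of 0.36 ± 0.25 (SE; edgeR adjusted p = 0.513).

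Ier3 and Ier2 carry the name immediate early response without belonging to the AP-1 or Egr families. Ier3 (ENSMUSG00000003541, chromosome 17, 35821684 to 35822923, plus strand), linked to cell survival, measured 6.59, 6.66 and 6.33 CPM at 30 days. It measured 10.8, 8.28 and 12.7 CPM at 60 days and 7.35, 8.42 and 8.48 CPM at 90 days. The 30-day libraries were almost equal and lay below all later ones. At 60 against 30 days the log2 fold change reached 0.70 ± 0.18 (SE; 95% interval 0.33 to 1.07), or 1.62-fold, and missed the threshold with an adjusted p of 0.0543 (edgeR). Over 18 alternatives the adjusted p ran from 0.0135 to 0.183, and it passed with DESeq2 (0.0185), without a filter on low counts (0.0135) and without 60-day sample 2 (0.0460). Ier2 (ENSMUSG00000053560, chromosome 8, 84661331 to 84662852, minus strand), a nuclear protein of the early response, measured 21.2 ± 2.69, 17.75 ± 3.53 and 19.45 ± 1.895 CPM (SD, n = 3 each) at 30, 60 and 90 days. Its groups overlapped in each pair.

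**Figure D3:**
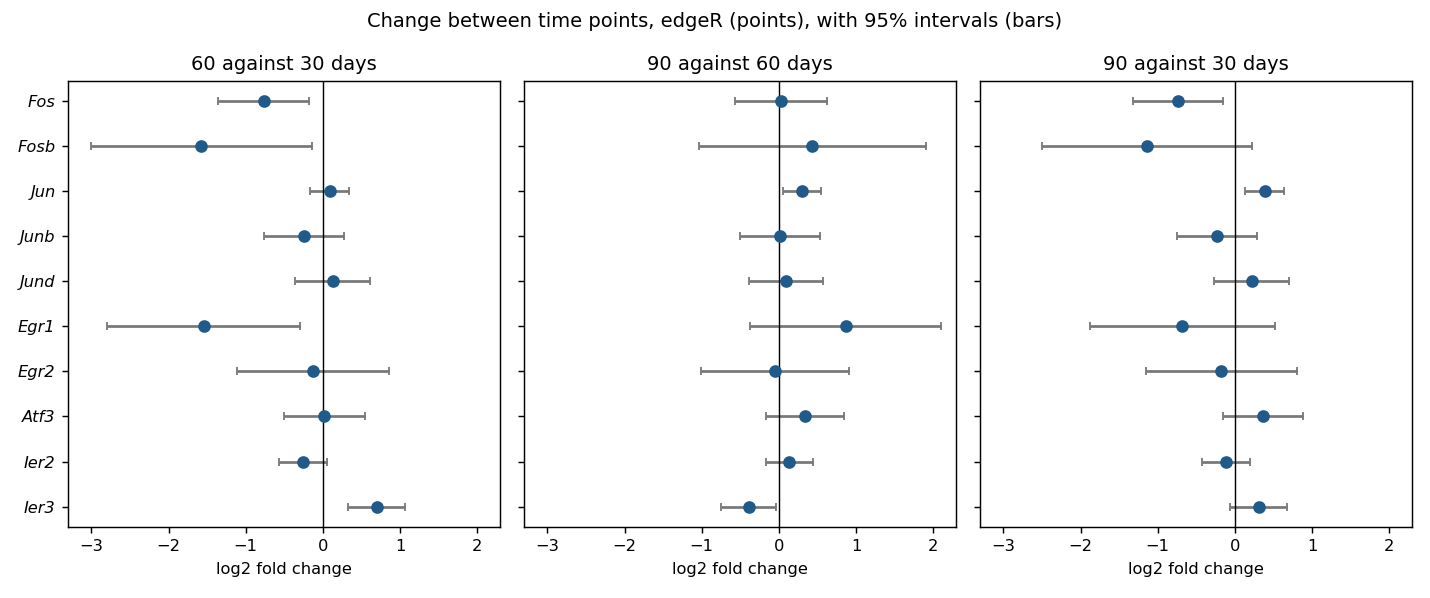
Log2 fold changes of the 10 genes (horizontal axes) in the pairwise contrasts from edgeR, with 95% intervals as bars, not adjusted for the number of genes. From 30 to 60 days the intervals of Ier3 (0.33 to 1.07), Fos, Fosb and Egr1 exclude 0. So do those of Jun and Ier3 from 60 to 90 days and of Fos and Jun from 30 to 90 days. None of these changes was called after adjustment, and the intervals of Fosb and Egr1 are the widest.

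The spread within time points differed between members. The pooled SD of log2 CPM was 0.705 for both Egr1 and Fosb, larger than in 93.4% of all tested genes. Because low counts spread more, each gene was also set beside the 500 genes of nearest mean level: Egr1 spread more than 99.4% of its neighbours, whose median SD was 0.180, Junb more than 98.4% and Jund more than 96.4%. Fosb, Egr2 and Fos, at 46.0%, 49.6% and 55.4%, spread about as genes of their level do.

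Deviations ran across several members within a library. In 60-day sample 3 the members were lowest of their group in 8 of 10 cases, with a median deviation of -0.275 on the log2 scale where all genes stood at 0.01. In 30-day sample 1 they were highest in 0 of 10 and lowest in 5 (Fos, Fosb, Jun, Junb and Egr1), with a median deviation of -0.178 (all genes -0.005). In 90-day sample 2 they were highest in 7 and lowest in 0, with a median of 0.155 (all genes 0.003). In 90-day sample 1 they were lowest in 6 of 10, with a median deviation of -0.121 (all genes 0.0009). For any gene 1 library of the 3 is lowest and 1 highest, and the shares over all genes in each library were not counted. In 60-day sample 3 the genes Muc19 and Smgc summed to 451.5 CPM, against 1131 and 1139 CPM in its group. There the 7 leukocyte genes summed to 86.4 CPM, against 60.7 and 68.8, and the 6 acinar genes to 298891 CPM, against 394110 and 446247. The 4 fibroblast genes, at 353.7 CPM, were also highest of the group in this library. In 30-day sample 1 the leukocyte and fibroblast sums were instead lowest of the group and the acinar sum highest. In 90-day sample 2 the 4 haemoglobin genes summed to 223 CPM, against 71.4 and 102 in its group, and the 7 leukocyte genes to 113 CPM, against 75.7 and 80.9. The heat shock and handling genes, 16 of 17 of which were tested, had median deviations of -0.07 in 30-day sample 1, -0.01 in 60-day sample 3 and 0.08 in 90-day sample 2. Their largest deviation was in 90-day sample 1, with a median of -0.136 and 13 of 16 lowest of the group. Whether collection of the tissue differed between these libraries was not tested.

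A wider list of 50 early response genes did hold changes, and 47 of them were tested. From 30 to 60 days 8 were called by edgeR, 5 higher and 3 lower, against 1.14% and 0.427% of all genes, and the list's median log2 fold change was 0.18. From 60 to 90 days 3 were called, with 0 higher and 3 lower (0.092% and 0.164% of all genes), and from 30 to 90 days 9, of which 6 were higher and 3 lower (1.81% and 1.77%). At 60 days against the mean of the others 5 were higher and 1 lower (0.204% and 0.0525%). The count of 8 became 5 without 30-day sample 2 or without 60-day sample 2. The count of 9 became 3 without 30-day sample 1, 4 without 30-day sample 2, 2 without 90-day sample 2 and 5 without 90-day sample 3. The last count of 6 became 3 without 60-day sample 2. Calls over all genes fell in the same fits. In the order given, 238 became 132 and 73 at 60 against 30 days, and 544 became 184, 333, 190 and 246 at 90 against 30 days. For 60 days against the mean 39 became 13. All gene lists, also those below, were written with earlier results of these data known, among them the changes of Dusp1 and Ccn1. The counts of called genes are thus not independent evidence. Egr4, Npas4 and Ptgs2 had at most 0, 4 and 9 counts in any library and were not tested. Cell type markers moved in the same contrasts: the 8 duct genes summed to 18427 to 23190 CPM at 30 days, 27269 to 31834 at 60 days and 23201 to 28685 at 90 days, and 2 of them were called higher at 60 and at 90 than at 30 days. Of the 6 acinar genes 3 were called lower at 90 than at 30 days. The part of these shifts in the early response values was not tested.

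Ccn1, a matrix protein gene induced through Srf and YAP, measured 3.47, 3.51 and 3.43 CPM in the 30-day libraries, 21.1, 19.4 and 25.1 CPM at 60 days and 7.11, 6.74 and 5.82 CPM at 90 days, with no overlap between groups. Relative to 30 days it rose by 2.65 ± 0.165 on the log2 scale at 60 days (SE; edgeR adjusted p = 3.35e-08), and relative to 60 days it was lower at 90 days by -1.73 ± 0.15 (adjusted p = 8.51e-06). Dusp1, a phosphatase that switches off MAP kinases, measured 3.97, 6.78 and 6.22 CPM, then 21.4, 19.1 and 38.8 CPM, then 8.29, 5.64 and 6.475 CPM. Its rise to 60 days was 2.21 ± 0.30 on the log2 scale (adjusted p = 0.00394), and relative to 60 days it was lower at 90 days by -1.955 ± 0.28 (adjusted p = 0.0181; 0.167 with library-size scaling, 0.131 without 90-day sample 2 and 0.0893 without 90-day sample 3). Its highest value came from 60-day sample 3, the library in which 8 of the 10 members were lowest of their group. Of the 47 tested genes of the wider list, 28 were also lowest and 9 highest of their group there, with a median deviation of -0.119. Cebpd, an acute-phase transcription factor, exceeded its 30-day level at 60 days by 1.18 ± 0.18 (SE; edgeR adjusted p = 0.00219). Sgk1, a kinase that regulates ion transport, was higher by 0.78 ± 0.115 (adjusted p = 0.00139) and Gadd45g, a stress gene, by 0.68 ± 0.16 (adjusted p = 0.0364). The Gadd45g call was lost under 8 of 18 alternatives, among them leaving out any 30-day sample, 60-day sample 1 or 2, or 90-day sample 3 (adjusted p from 0.0543 to 0.152). Phlda1, a pleckstrin homology domain gene, was lower by -0.68 ± 0.10 (adjusted p = 0.00139).

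**Figure D4:**
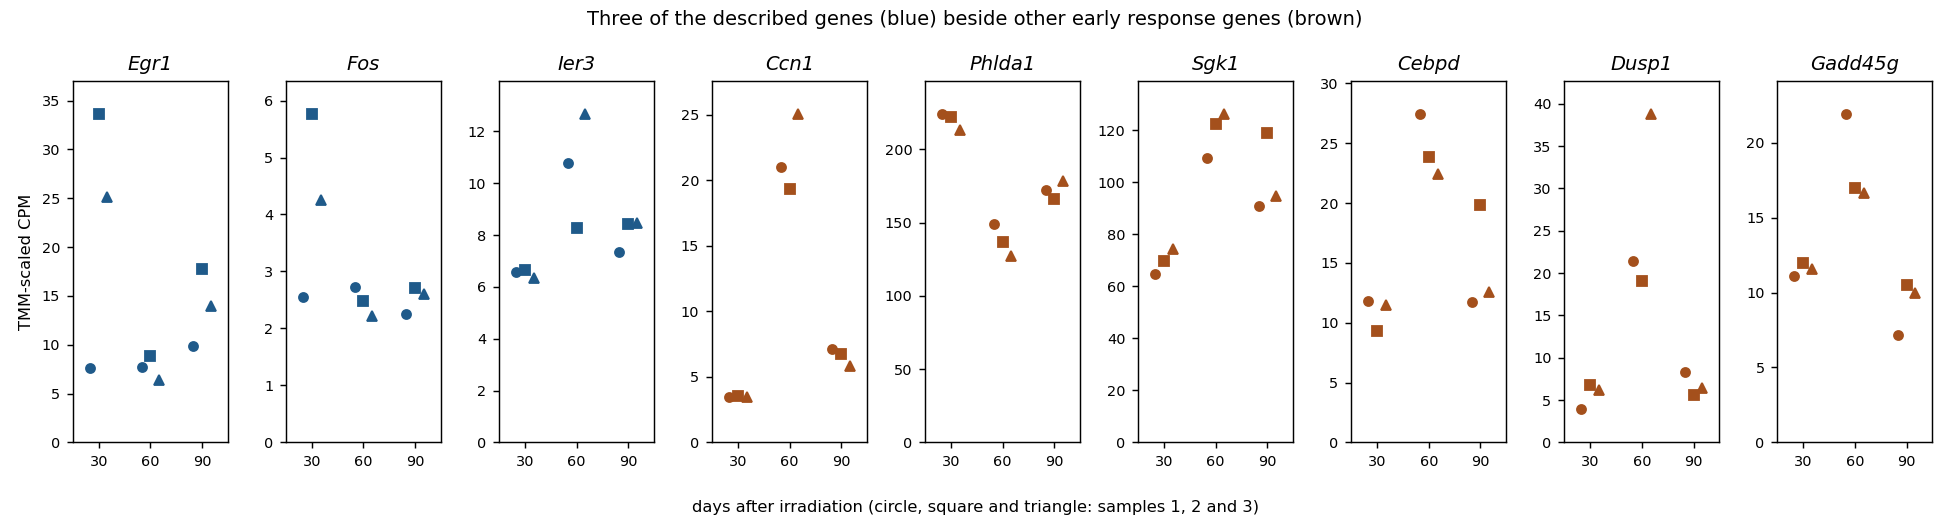
TMM-scaled CPM (vertical axes, from 0) by days after irradiation for Egr1, Fos and Ier3 (blue) and for 6 genes of the wider early response list (brown), with circles, squares and triangles for samples 1, 2 and 3. The 60-day values of Ccn1 (19.4 to 25.1 CPM) and Dusp1 (19.1 to 38.8 CPM) lie above all others of the gene, while those of Egr1 lie between 6.38 and 8.82 CPM.

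The remaining called genes of the wider list are named after their values were seen. At 60 days Ier5, a relative of Ier2, was lower than at 30 days by -0.83 ± 0.19 (SE; edgeR adjusted p = 0.0370), and the pseudokinase gene Trib1 by -0.50 ± 0.09 (adjusted p = 0.00788). At 90 against 30 days Arc, best known from neurons, was higher by 1.445 ± 0.29 (adjusted p = 0.0278), with Gadd45a, Klf10 and Btg1 also higher (0.93, 0.71 and 0.57). The nuclear receptor gene Nr4a1 was lower by -0.49 ± 0.13 (adjusted p = 0.0366), along with Trib1 and Tob1 (-0.415 and -0.47). With library-size scaling Nr4a1, Trib1 and Tob1 were at -0.25, -0.19 and -0.23 in this contrast and none of them passed (adjusted p = 0.386, 0.496 and 0.367). Of the genes in this paragraph Klf10 alone passed under all 18 alternatives; without 90-day sample 2 the adjusted p was 0.0876 for Arc, 0.116 for Gadd45a, 0.211 for Btg1, 0.170 for Nr4a1, 0.0951 for Tob1 and 0.0536 for Trib1. Without 60-day sample 2 it was 0.236 for Ier5 and 0.0677 for Trib1 at 60 against 30 days. Leaving out 30-day sample 1 gave 0.104 for Gadd45a, 0.173 for Btg1, 0.230 for Nr4a1 and 0.109 for Tob1.

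Genes upstream of the early response, from Srf and the Ets partners to the MAP kinases and their inhibitors, included changes in MAP kinase phosphatases. Of 32 listed and tested, 2 were called from 30 to 60 days, where 1.56% of all genes were: the MAP kinase phosphatase genes Dusp5, higher by 1.06 ± 0.16 (SE; edgeR adjusted p = 0.00219), and Dusp6, lower by -1.51 ± 0.12 (adjusted p = 6.75e-07). Both changes were known when the list was written. Dusp6 measured 114, 97.6 and 101 CPM at 30 days, 34.7, 36.5 and 38.7 at 60 days and 75.9, 102 and 86.9 at 90 days, and its 60-day libraries lay below all others. Dusp5 fell by 1.535 ± 0.16 from 60 to 90 days (adjusted p = 0.000133), and Dusp6 rose by 1.27 ± 0.12 (adjusted p = 1e-05). From 60 to 90 days 3 of the 32 were called (0.256% of all genes) and from 30 to 90 days 1 (3.57%). The gene added to both counts was Sorl1, a sorting receptor gene on the list that belongs to none of the classes named above. It was lower by -0.55 ± 0.10 and -0.41 ± 0.10 (SE; edgeR adjusted p = 0.0176 and 0.0259). Without 90-day sample 2 these were 0.126 and 0.135, and without 30-day sample 1 the 90 against 30 day value was 0.147. With library-size scaling Sorl1 was at -0.38 (adjusted p = 0.367) and -0.18 (adjusted p = 0.515). The list's median log2 fold change from 30 to 60 days was -0.003.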

How the data were processed

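RNA-seq libraries of 9 irradiated mouse submandibular glands, 3 at each of 3 time points, were analysed from a table of counts per gene that the authors deposited. Per the submitters' processing notes, fastp, STAR, featureCounts and the build mm10 were used; versions, the annotation, the strand setting and read filters are not given in the sources used here. Of the 54532 gene identifiers, 54409 were named through GENCODE M21. The table has 3 further columns, which matched no sample's labels and were not used.

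Genes were filtered with filterByExpr (minimum count 10), leaving 15224, and scaled by TMM in edgeR 4.0.16 (R 4.3.3). All 9 libraries entered one robust quasi-likelihood fit, so that the groups share one estimate of the spread, with Benjamini-Hochberg adjustment over all genes tested and a threshold of 0.05. The contrasts were 60 against 30, 90 against 60 and 90 against 30 days, and 60 days against the mean of the others. Level comparisons between genes used CPM per kilobase of GENCODE exons. The fitting step was tested on simulated data. A floor of 3 counts marks what counting alone can show and covers no other error, because PCR copies of a molecule cannot be told from separate molecules in this table. The 95% intervals of fold changes come from the fit and include the spread between libraries.

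The 10 genes and all gene lists were chosen with earlier results of these data known. All 10 were named; from each list, up to 6 genes with the smallest adjusted p under 0.05 in any contrast were named by rule, except that 1 gene is not reported here. Libraries of a group differed by more than sampling noise (chi-square per degree of freedom 10.2 to 34.7), so none was counted as a duplicate. Alternatives were other scalings (RLE, library size, library size without the 10 most abundant genes), DESeq2 1.42.0, other filters, counts drawn down to the smallest total (16541396), each library left out, a replicate block and the 6 samples of a contrast alone. For the list genes named these alternatives, and leaving out libraries for the list counts, were chosen after seeing the data.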

Additional observations from a re-analysis of the deposited data

How the results depend on the processing

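Each group had 3 libraries; Fosb had 1 to 16 and Egr2 11 to 43 counts per library. The number of the 10 genes called between 60 and 30 days was 0, and 1 with DESeq2 or without a filter on low counts (Ier3), and 0 to 1 when leaving out single libraries. Between 90 and 30 days it was 0, 1 with library-size scaling or without a filter (Jun), and 0 to 1 when leaving out libraries; for 60 days against the mean of the others it was 0, 1 without a filter (Ier3), and 0 to 1. Between 90 and 60 days it was 0 under all alternatives. With library-size scaling the early response list had 5, 1 and 5 calls in place of 8, 3 and 9 in the pairwise contrasts, the handling list 0 in place of 1 between 60 and 30 days, and the upstream list 0 in place of 1 between 90 and 30 days. Leaving out single libraries, an alternative added after seeing the data, gave the early response list 5 to 9, 2 to 4 and 2 to 10 calls in these contrasts and 3 to 7 for 60 days against the mean. It gave the handling list 0 to 1 between 60 and 30 days and 1 to 4 between 90 and 30 days, and the upstream list 2 to 3 between 90 and 60 days and 0 to 2 between 90 and 30 days. The cause was not tested.

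Small log2 fold changes that missed the threshold turned sign: Atf3, 60 against 30 days (-0.067 without the 10 most abundant genes); Fos, 90 against 60 (-0.081 drawn down); with library-size scaling Egr2, 90 against 60 (0.127) and 90 against 30 (0.0714), and Ier2, 90 against 30 (0.112). For 60 days against the mean of the others, Jund was -0.0679 with library-size scaling, -0.043 without the 10 most abundant genes and -0.00413 drawn down, and Egr2 was 0.082 drawn down. Leaving out single libraries gave these ranges for 60 against 30 days: Jun -0.0464 to 0.171, Junb -0.503 to 0.00558, Jund -0.198 to 0.317, Egr2 -0.52 to 0.102 and Atf3 -0.201 to 0.268. For 90 against 60 days they were Fos -0.0531 to 0.102, Junb -0.243 to 0.269, Jund -0.107 to 0.413, Egr2 -0.528 to 0.34 and Ier2 -0.0245 to 0.26; for 90 against 30 days, Egr2 -0.654 to 0.0737. For 60 days against the mean of the others they were Junb -0.386 to 0.125, Jund -0.306 to 0.212 and Egr2 -0.43 to 0.201. The cause was not tested.

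Over all genes, 238, 39, 544 and 39 were called in the 4 contrasts (60 against 30, 90 against 60, 90 against 30 days and 60 days against the mean). DESeq2 called 376, 150, 867 and 148, the fit without a filter 459, 354, 1045 and 230, and library-size scaling 90, 28, 440 and 20; leaving out single libraries gave 73 to 244, 16 to 103, 184 to 703 and 13 to 81. With library-size scaling 406 genes were higher and 34 lower between 90 and 30 days, against 275 and 269; between 60 and 30 days 79 and 11, against 173 and 65; between 90 and 60 days 19 and 9, against 14 and 25; and for 60 days against the mean 12 and 8, against 31 and 8. Without the 10 most abundant genes the splits were 103 and 112, 16 and 20, 212 and 385, and 20 and 14.

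The sample numbers were not taken to pair the samples: correlations of deviations between same-numbered libraries ran from -0.06 to 0.191, and 30-day sample 3 correlated best with 90-day sample 2 (0.189). A replicate block gave 270, 92, 717 and 73 calls over all genes and 0 of the 10 genes in each contrast, and Jund at -0.0212 for 60 days against the mean.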

Other observations

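Other basic leucine zipper genes, whose products can pair with Fos and Jun proteins or bind related sites, included changes that the 10 genes did not show. Of 17 listed and tested, 2 were called higher by edgeR between 30 and 60 days (1.14% of all genes), among them Maf, a factor known from lens and lymphocyte differentiation. Maf measured 10.6, 11.5 and 14.7 CPM, then 22.1, 26.0 and 39.05, then 20.6, 34.1 and 30.9 at 30, 60 and 90 days. Its log2 fold change was 1.24 ± 0.25 (SE; edgeR adjusted p = 0.0362; 0.138 with library-size scaling) at 60 against 30 days and 1.21 ± 0.25 (adjusted p = 0.0226) at 90 against 30 days. Its 30-day libraries lay below all later ones. The call at 60 days was lost without any 30-day sample, 60-day sample 2 or 90-day sample 3 (adjusted p from 0.0509 to 0.176). The call at 90 days was lost without 30-day sample 1 (0.133), 30-day sample 2 (0.0877), 90-day sample 2 (0.0819) or 90-day sample 3 (0.0805). The 7 leukocyte genes overlapped between all groups, with sums of 58.1 to 95.96, 60.7 to 86.4 and 75.7 to 113 CPM, and their part in the Maf values was not tested. Bach2, a repressor known from lymphocytes, was lower at 90 than at 30 days by -0.69 ± 0.17 (adjusted p = 0.0333; 0.260 with library-size scaling), and Atf6, a sensor of endoplasmic reticulum stress, was higher at 60 days than the mean of the others by 0.41 ± 0.09 (adjusted p = 0.0484; 0.703 with library-size scaling). Without 30-day sample 1 the adjusted p was 0.225 for Bach2, and without 60-day sample 2 it was 0.598 for Atf6. The list had 3 calls between 90 and 30 days (3.57% of all genes). Between 90 and 60 days edgeR called 0 (0.256%), with 4 at an unadjusted p under 0.05 (10.8%). DESeq2 called 1 in this contrast, and 150 of all 15224 genes. For 60 days against the mean edgeR called 1 (0.256%) and DESeq2 3, where DESeq2 called 148 of all 15224 genes.

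Heat shock genes, which also respond to handling, included rises at 90 days. Between 90 and 30 days 3 of the 16 tested handling and heat shock genes were called, all higher (1.81% of all genes): the chaperone genes Hsph1 by 0.80 ± 0.14 (SE; edgeR adjusted p = 0.00354) and Hspa8 by 0.58 ± 0.12 (adjusted p = 0.00912), and the co-chaperone gene Dnaja1 by 0.57 ± 0.115 (adjusted p = 0.00781). Hsph1 measured 13.75, 16.9 and 15.5 CPM at 30 days, 17.2, 17.3 and 21.4 at 60 days and 22.9, 25.85 and 32.2 at 90 days. Dnaja1 was also higher at 60 than at 30 days, by 0.49 ± 0.115 (adjusted p = 0.0340; 0.209 with library-size scaling, 0.181 without 30-day sample 1 and 0.242 without 60-day sample 2). Without 90-day sample 2 the count of 3 became 1, Hsph1, with Hspa8 at an adjusted p of 0.0600 and Dnaja1 at 0.0526. It became 2 without 30-day sample 1 (Dnaja1 at 0.0580) or 90-day sample 3 (Dnaja1 at 0.0517). Over all genes the 544 calls became 190, 184 and 246 without these libraries, in the order given. Between 90 and 60 days edgeR called 0 of the 16 (0.256% of all genes), with 3 at an unadjusted p under 0.05 (10.8%). DESeq2 called 1 of them, and 150 of all 15224 genes. For 60 days against the mean edgeR and DESeq2 called 0 (0.256% of all genes by edgeR, and 148 of 15224 by DESeq2). An unadjusted p under 0.05 was held by 2 with edgeR (9.45%) and by 1 with DESeq2 (9.12%). In the 90 against 30 day contrast 3 of 6 acinar genes were called lower, and 2 of 8 duct and 1 of 6 basal and myoepithelial genes higher, and their part in the heat shock values was not tested.

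The mean standardized log2 CPM of the 10 genes was highest in 90-day sample 2 (0.582) and lowest in 60-day sample 3 (-0.755). Junb and Egr1 followed it most closely among the 10 (r = 0.826 and 0.744 over 9 libraries), and Ier3 ran the other way (r = -0.412). Among the other genes of at least 1 CPM the 6 most alike were Pacsin3 (r = 0.958), Arl11 (0.951), Apoc1 (0.939), Fbxl14 (0.929), Rinl (0.928) and Daxx (0.927). Each of the 10 genes is part of that mean, which raises its own r. These correlations describe 9 libraries that share their scaling and were picked as the highest of many. Apoc1, an apolipoprotein gene, measured 4.11, 7.965 and 8.64 CPM at 30 days, 6.39, 5.56 and 2.795 at 60 days and 6.34, 8.39 and 5.77 at 90 days, lowest in 60-day sample 3 and 30-day sample 1.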
